A study of Mus musculus with 15 samples.

Results

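Fgf21, its co-receptor beta-klotho (Klb) and the receptors Fgfr1, Fgfr2, Fgfr3 and Fgfr4 were followed in the livers of mice after gastric bypass. They were taken by gene symbol, as 6 of the 22180 genes that the array measured through a transcript cluster (a set of probes for 1 transcript) with a single symbol, and each of the 6 had exactly 1 such cluster. Liver RNA of 15 male ApoE*3Leiden.CETP mice, which carry human APOE*3-Leiden and CETP transgenes that make their lipoproteins more human-like, was measured on 1 array per mouse. Mice were 9 to 12 weeks old at entry, acclimated, and then received a rich diet (60% fat, 0.25% cholesterol) during the 6 weeks before the operation. The RYGB group (n = 6) had a Roux-en-Y gastric bypass, which reroutes food past most of the stomach and the upper small intestine. The Sham AL group (n = 5) had a sham operation and ate ad libitum, and the BWm group (n = 4) had a sham operation and was kept at a body weight matched to RYGB. Every mouse had a glucose test and later an insulin test before death, the insulin test shortly before the livers were taken. Livers were taken 20 days after the operation. All groups therefore share the transgenes, the diet before surgery, an operation, the glucose and insulin tests and single housing. No group without these was measured, so what the tests did to the genes below was not tested. The sources used here give neither the promoters that drive the transgenes nor the feeding state at death. RYGB against Sham AL asks what differs after bypass, RYGB against BWm what differs at matched weight, and BWm against Sham AL what differs between sham mice at the matched weight and sham mice that ate freely. The 3 comparisons share groups and are not independent of each other.

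FGF21 is a hormone of the fibroblast growth factor family that the liver secretes into blood. It signals through an FGF receptor, mainly the FGFR1c isoform, only where beta-klotho is present as co-receptor, and it acts on fat and brain to alter energy use, sugar intake and insulin sensitivity. In hepatocytes beta-klotho pairs mainly with FGFR4 and receives the gut hormone FGF15, which represses bile acid synthesis. Hepatic Fgf21 transcription is known to respond to PPAR alpha in fasting, to ATF4 in amino acid shortage and endoplasmic reticulum stress, and to ChREBP after sugar intake.

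The promoter of Fgf21 is shown because it carries the kind of site through which ATF4 is known to act, and ATF4 target genes are described further on. Sequences are those of RefSeq on GRCm38.p6, covering 250 bases upstream of the annotated start, and were available for 5 of the 6 genes (not for Fgfr1). In the Fgf21 promoter, chr7:45615491-45615740 on the minus strand, capitals mark first the reverse complement of TGATGCAA, 139 to 132 bases upstream of the start, and then CACGTG, 50 to 45 bases upstream.
Fgf21: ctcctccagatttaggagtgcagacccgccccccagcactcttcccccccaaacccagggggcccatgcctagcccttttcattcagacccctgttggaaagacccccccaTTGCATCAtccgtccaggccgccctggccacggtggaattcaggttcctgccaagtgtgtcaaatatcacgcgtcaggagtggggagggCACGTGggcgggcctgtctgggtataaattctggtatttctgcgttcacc
The letters TGATGNAA, the core of the C/EBP-ATF response element, were searched on both strands. They occurred in the promoters of 1056 of 27025 genes (3.91%), of 1 of the 5 genes described here (Fgf21) and of 6 of the 19 listed ATF4 target genes with a promoter sequence (31.6%). The E-box CACGTG, whose letters read the same on both strands, occurred in 1854 genes (6.86%), again including Fgf21 alone of the 5. The palindrome TGACGTCA of a cAMP response element (478 genes, 1.77%) was found in none of the 5 promoters. Exact letters for the sites of ChREBP, PPAR alpha and endoplasmic reticulum stress were searched too, and matched 0, 11 and 35 of 27025 genes. None of the 5 held a match, nor did any of 14 PPAR alpha targets with a promoter sequence. Letters so rare cannot tell whether looser forms of these sites are present. The Fgf21 match is set below beside those of the 6 ATF4 targets, with 8 bases on either side and capitals for the motif, to show how far the surroundings differ. Slc7a11 held a second match, 47 to 40 bases upstream, outside the window shown.
Fgf21, chr7:45615614-45615637, plus strand: tggacggaTGATGCAAtggggggg
Asns, chr6:7693217-7693240, minus strand: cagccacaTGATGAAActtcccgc
Atf3, chr1:191183428-191183451, plus strand: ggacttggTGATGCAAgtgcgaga
Slc7a11, chr3:50443664-50443687, minus strand: catgtggcTGATGCAAacctggag
Nupr1, chr7:126625565-126625588, plus strand: gccctgtcTGATGCAAtctggccc
Chac1, chr2:119351041-119351064, minus strand: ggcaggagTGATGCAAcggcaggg
Vldlr, chr19:27216812-27216835, minus strand: aggagcgcTGATGCAActattgct
A match of letters is a description of the sequence and not evidence of binding.

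Signals are deposited log2 values after robust multi-array averaging, with array medians between 3.89 and 4.02 and correlations between arrays of 0.957 to 0.986. No level is compared between genes, because probes differ in brightness. The number of arrays limits the precision. Sham AL replicate 4 stood apart. Its mean over 8 adrenal cortex markers was 5.26 log2 units above the mean of all arrays, against -0.42 to -0.22 on the other Sham AL arrays, and over 8 brown fat and adipocyte markers it was 3.60 above, against -0.05 to 0.41. Its 8 hepatocyte markers had the lowest mean of any array, at -0.23. Values without this array are given beside the results whose call it changes, including those against BWm, since all groups share 1 estimate of the spread. Hepatocyte markers were measured on every array. Their means ranged from -0.18 to 0.09 in RYGB, from -0.23 to 0.08 in Sham AL and from 0.06 to 0.22 in BWm. Of the 8 markers, limma called 1 higher in BWm against Sham AL, as for 1.53% of all genes, and 0 in the other comparisons. Estimates above 0 numbered 7 in BWm against Sham AL, 4 in RYGB against Sham AL and 0 in RYGB against BWm. The 10 Kupffer cell and macrophage markers ranged from -0.06 to 0.47 in RYGB, from -0.41 to 0.17 in Sham AL and from -0.38 to 0.22 in BWm, and all 10 had estimates above 0 in both RYGB comparisons, 1 of them past the test in each. Of the marker lists for exocrine pancreas, stellate cells, cholangiocytes, endothelium and neutrophils, 0 genes were called by limma in any comparison, and at most 3 of a list had an unadjusted p under 0.05. In whole liver, fewer cells of a type and less RNA per cell cannot be told apart, and the part of these markers in the results below was not tested.

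Fgf21 was higher after bypass than in either sham group. Its log2 signal was 6.15 on the lowest RYGB array and 7.60 on the highest, with a median of 6.89. The Sham AL arrays read 5.36, 5.27, 5.61, 5.53 and 5.10, and the BWm arrays 5.08, 6.05, 5.92 and 5.04. Every RYGB array lay above every array of both sham groups, and the BWm arrays fell into a pair just below the Sham AL range and a pair above it. Group means were 6.89 ± 0.52 in RYGB (SD, n = 6), 5.37 ± 0.21 in Sham AL (SD, n = 5) and 5.52 ± 0.54 in BWm (SD, n = 4).

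**Figure D1:**
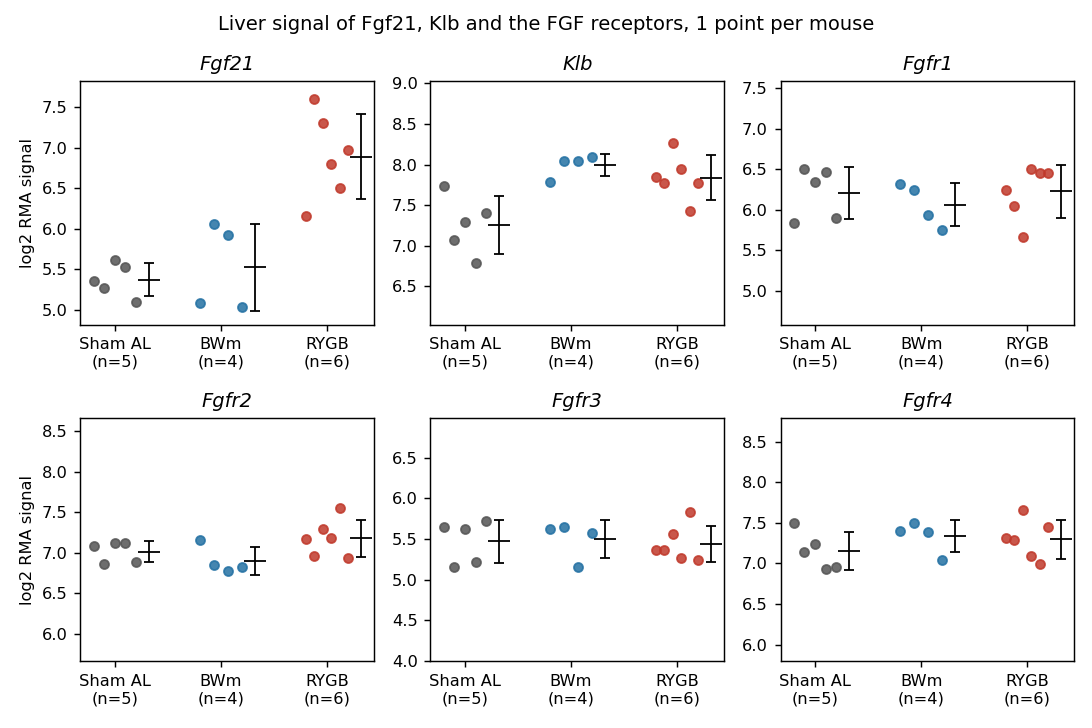
Log2 signal of each of the 6 genes on every array, by group (RYGB, Sham AL, BWm; 1 point per mouse, bars are the mean and SD). For Fgf21 the RYGB points (6.15 to 7.60) lie above all others, and for Klb the BWm points (7.79 to 8.09) lie above all Sham AL points (6.79 to 7.74).

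The RYGB difference from Sham AL was 1.51 ± 0.23 log2 units (SE), or 2.86-fold with a 95% interval of 2.03 to 4.01 (limma, adjusted p = 0.00225). Against BWm it was 1.36 ± 0.25, or 2.58-fold (adjusted p = 0.00222). Of the 6 genes Fgf21 was the only one called in either RYGB comparison. Over all genes, 0.938% were called higher in RYGB against Sham AL and 4.02% in RYGB against BWm, and the groups were separate with RYGB above for 1.58% and 4.71%. By p-value Fgf21 stood at rank 43 of 22180 in the first comparison and at rank 338 in the second. BWm against Sham AL gave 0.15 ± 0.26 (95% interval -0.39 to 0.69, adjusted p = 0.85), so that a BWm difference from Sham AL of up to 0.69 lies within the interval. Leaving out any single array left both RYGB differences called, with adjusted p between 0.000593 and 0.0118. The mice carry animal numbers in the labels, and 3 of 6 RYGB mice, 1 of 5 Sham AL mice and 0 of 4 BWm mice have numbers under 50. Among mice numbered above 60, Fgf21 lay at 6.51 to 6.98 in RYGB (n = 3) and 5.10 to 5.61 in Sham AL (n = 4), a difference of 1.38, and the difference from BWm was 1.24. What the numbers mark is not stated.

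Klb, the co-receptor without which FGF21 and FGF15 do not signal, followed another order. Its RYGB arrays had a lowest value of 7.42, a median of 7.81 and a highest value of 8.27. The Sham AL arrays read 7.74, 7.06, 7.30, 6.79 and 7.40, and the BWm arrays 7.79, 8.05, 8.04 and 8.09. All 4 BWm arrays and 5 of 6 RYGB arrays were above the highest Sham AL array, and the BWm values lay within the RYGB range. Means were 7.84 ± 0.27 in RYGB, 7.26 ± 0.36 in Sham AL and 7.99 ± 0.14 in BWm (SD, n = 6, 5 and 4).

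Klb rose in BWm against Sham AL by 0.73 ± 0.17, or 1.66-fold (limma, adjusted p = 0.0275). It was the only one of the 6 genes called there, where 1.53% of all genes were called higher and 3.46% were separate with BWm above. This call ended without Sham AL replicate 4, at 0.62 and adjusted p = 0.0556, and without any of 4 other arrays (Sham AL replicate 2 and BWm replicates 2, 3 and 4), with adjusted p up to 0.0878. RYGB against Sham AL gave 0.58 ± 0.16, or 1.50-fold, which did not pass (unadjusted p = 0.00162, adjusted p = 0.080). It passed without RYGB replicate 5 (0.66, adjusted p = 0.0396) or without Sham AL replicate 1 (0.70, adjusted p = 0.0356), and fell to 0.46 without Sham AL replicate 4. RYGB and BWm differed by -0.15 ± 0.17 (95% interval -0.50 to 0.20, adjusted p = 0.72). Among mice numbered above 60, BWm lay 0.85 above Sham AL (n = 4 each).

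**Figure D2:**
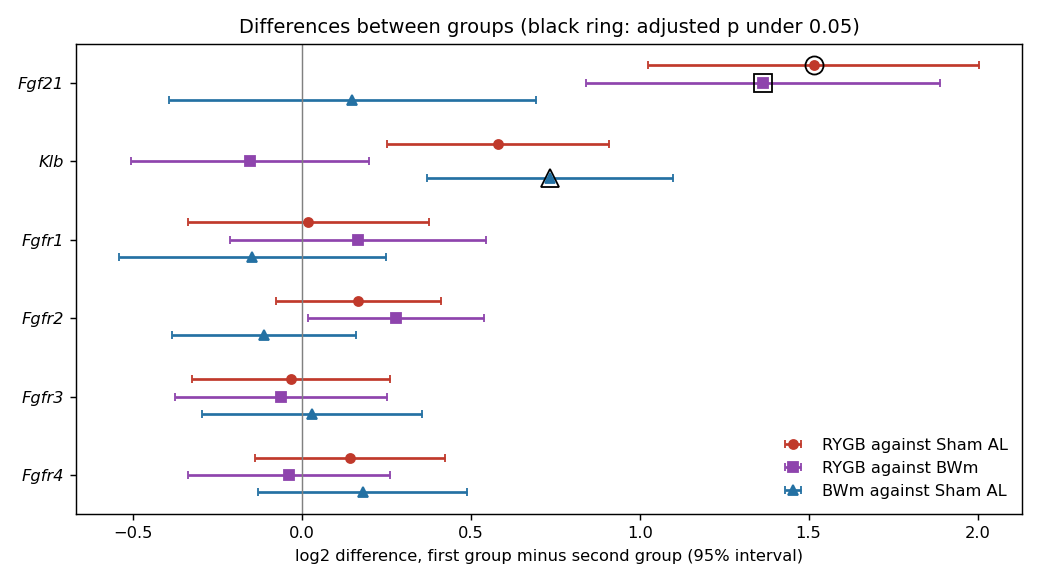
Log2 differences of the 6 genes in the 3 comparisons, with 95% intervals; a black ring marks an adjusted p under 0.05. Fgf21 is ringed in both RYGB comparisons (1.51 and 1.36) and Klb in BWm against Sham AL (0.73), while the intervals of the receptors, apart from Fgfr2 in RYGB against BWm, include 0.

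None of the 4 receptors was called by limma in any comparison, and at an unadjusted p under 0.05 only Fgfr2 passed, in RYGB against BWm. Fgfr4, the main partner of beta-klotho in hepatocytes, averaged 7.30 ± 0.24 in RYGB, 7.15 ± 0.23 in Sham AL and 7.33 ± 0.20 in BWm, and its arrays ran from 6.99 to 7.66, 6.93 to 7.49 and 7.05 to 7.49, so that the groups overlapped. RYGB differed from Sham AL by 0.14 ± 0.13 and from BWm by -0.04 ± 0.14 (adjusted p = 0.71 and 0.94), with intervals in fold of 0.91 to 1.34 and 0.793 to 1.20. Fgfr1, which carries FGF21 signalling in fat and brain, averaged 6.23 ± 0.32, 6.21 ± 0.32 and 6.06 ± 0.27 in the same order of groups. Its RYGB estimates were 0.02 ± 0.17 against Sham AL and 0.17 ± 0.18 against BWm (adjusted p = 0.98 and 0.71). Fgfr1 arrays ran from 5.66 to 6.51 in RYGB, from 5.83 to 6.51 in Sham AL and from 5.75 to 6.32 in BWm, and no group stood apart.

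Fgfr2, a receptor mostly of paracrine FGFs, read 7.17, 6.96, 7.29, 7.18, 7.55 and 6.94 in RYGB, 7.08, 6.86, 7.13, 7.12 and 6.89 in Sham AL, and 7.16, 6.84, 6.78 and 6.83 in BWm. RYGB replicate 5 had the highest value of all arrays, and all groups overlapped. The estimate against BWm was 0.28 ± 0.12, with an unadjusted p of 0.037 and an adjusted p of 0.23. Fgfr3 averaged 5.44 ± 0.23, 5.47 ± 0.27 and 5.50 ± 0.23, the closest group means of the 4 receptors, and its arrays ran from 5.24 to 5.83, 5.15 to 5.72 and 5.15 to 5.65. In BWm against Sham AL the estimates were 0.18 ± 0.15 for Fgfr4, -0.15 ± 0.19 for Fgfr1, -0.11 ± 0.13 for Fgfr2 and 0.03 ± 0.15 for Fgfr3 (adjusted p between 0.63 and 0.95). For Fgfr3 and Fgfr1 the sign of the RYGB estimate against Sham AL turned under several settings, so no direction is given.

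Within groups, the genes were also compared with each other over the 15 mice after each group's mean was removed. Klb and Fgfr1 deviated in opposite directions, with a Pearson r of -0.755 (permutation p = 0.00389, two-sided, labels permuted within groups) and a Spearman rho of -0.696 (permutation p = 0.0133). This was 1 of 15 pairs, and after Benjamini-Hochberg adjustment the values were 0.0583 and 0.199, so the relation did not pass. It was -0.769 without the pair of mice farthest from the median and -0.755 without Sham AL replicate 4. Klb and Fgfr4 had an r of 0.609 (permutation p = 0.0302, adjusted 0.183) and a rho of 0.404 (permutation p = 0.160, adjusted 0.486), and r fell to 0.421 without the farthest pair. Fgf21 did not pass with any of the other genes. For Fgf21 and Klb r was 0.178 (permutation p = 0.513, adjusted 0.699) and rho 0.111 (permutation p = 0.688, adjusted 0.828).

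**Figure D3:**
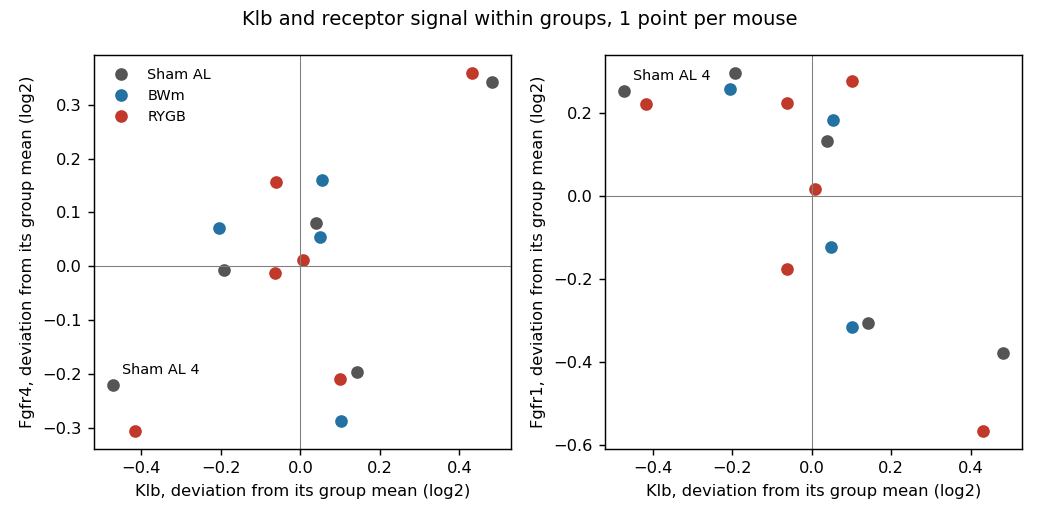
Fgfr4 (left) and Fgfr1 (right) against Klb, each as the deviation of a mouse from its group mean in log2 units, 1 point per mouse and coloured by group. Points fall from upper left to lower right for Fgfr1 (r = -0.755) and scatter more for Fgfr4 (r = 0.609); neither passed adjustment over 15 pairs.

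Genes around the ligand were taken from 11 lists of the FGF pathway and of Fgf21 regulation, with 174 measured genes. Of these, 19 (10.9%) were called in RYGB against Sham AL, 39 (22.4%) in RYGB against BWm and 19 (10.9%) in BWm against Sham AL, beside 1.38%, 6.36% and 2.84% of all genes. The lists were chosen with earlier results of these arrays known, so these shares are a description and not a test of the lists. The median difference of all genes was -0.0029, 0.0012 and -0.015 in the same order. Most of the called genes belonged to the lists of regulators and targets and few to FGF signalling itself.

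Among the 21 other FGF ligands, 0 were called in RYGB against Sham AL, 1 in RYGB against BWm and 1 in BWm against Sham AL, and both calls were Fgf1; at an unadjusted p under 0.05 limma passed 1, 2 and 2. Fgf1, a broad ligand that also lowers blood glucose when given as a drug, read 8.70, 9.24, 9.73 and 9.37 in BWm. Sham AL arrays read 8.73, 8.49, 8.22, 8.21 and 8.34, and RYGB arrays ran from 8.08 to 8.79 with a median of 8.25. All BWm arrays but replicate 1 were above every other array. Fgf1 fell in RYGB against BWm by 0.91 ± 0.18 (limma, adjusted p = 0.00346) and rose in BWm against Sham AL by 0.86 ± 0.18 (adjusted p = 0.0144; 0.0692 without BWm replicate 3), while RYGB and Sham AL differed by -0.05 ± 0.17 (adjusted p = 0.94). Fgf15, the gut ligand of FGFR4, stood near the array medians and differed by at most 0.03 in size. None of the 6 other co-receptors and decoys was called by limma, and 0 had an unadjusted p under 0.05 in any comparison. Among them Kl (alpha-klotho) lay below the array medians, and so did Fap, the protease that inactivates human FGF21.

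Heparan sulfate chains bind FGFs and help them reach their receptors. Of 24 measured genes for these chains and FGF carriers, 1 rose and 1 fell in RYGB against Sham AL, where 0.442% of all genes were called lower. Glce, the epimerase that reshapes the chains, rose by 0.60 ± 0.09 (limma, adjusted p = 0.00157). Sulf2, which trims sulfate from the chains, fell by 0.54 ± 0.12 (adjusted p = 0.039). The Sulf2 call was lost without any 1 of 8 arrays, among them Sham AL replicate 4 (-0.45, adjusted p = 0.0853). Against BWm, Sulf2 and the core protein gene Sdc4 fell, by 0.54 and 0.46, and 2.34% of all genes were called lower there; the Sulf2 call ended without BWm replicate 2 or 3 (adjusted p up to 0.0802). Glce also rose in BWm against Sham AL, by 0.42 (adjusted p = 0.0224), a call that ended without Sham AL replicate 3 or BWm replicate 3 or 4.

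Past the receptor, the adaptors and kinases of the RAS-ERK and PI3K chain showed 0 calls among 17 measured genes in RYGB against Sham AL and in BWm against Sham AL, where limma gave 3 and 4 genes an unadjusted p under 0.05. Against BWm, Nras rose in RYGB by 0.45 ± 0.10 and Gab1 fell by 0.53 ± 0.12 (limma, adjusted p = 0.0124 and 0.0121). The first call ended without BWm replicate 2 (adjusted p = 0.0593) and the second without BWm replicate 3 (adjusted p = 0.0614). Of 21 measured feedback and early genes of ERK signalling, 1 rose and 1 fell in each RYGB comparison and 0 were called by limma in BWm against Sham AL, with 3 at an unadjusted p under 0.05. Spry4, an inhibitor that ERK signalling induces, read 5.28 to 6.11 in RYGB (median 6.03), 6.39 to 6.92 in Sham AL and 6.35 to 7.12 in BWm. Its RYGB arrays all lay below those of both sham groups, as for 0.812% and 2.91% of all genes. Spry4 fell by 0.79 ± 0.17 against Sham AL (adjusted p = 0.0205, and up to 0.0662 without Sham AL replicate 1 or 2) and by 0.78 ± 0.18 against BWm (adjusted p = 0.0105). Other feedback genes did not pass. Dusp6, the ERK phosphatase, had estimates of 0.13 and -0.02, Etv5 0.15 and 0.30, and Il17rd 0.03 and -0.22. Myc rose against Sham AL (1.05, adjusted p = 0.041). The Myc call was lost without any 1 of 9 arrays, among them Sham AL replicate 4 (1.05, adjusted p = 0.0579). Ccnd1, a cyclin that drives cell division, rose against BWm (1.28 ± 0.28, adjusted p = 0.0082). Against BWm 3 of the 21 genes were called higher without Sham AL replicate 4, and 2 without RYGB replicate 1.

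Targets that FGF15 represses through FGFR4 and beta-klotho in hepatocytes were not called in any comparison, 0 of 5 each time in limma, with 1 gene at an unadjusted p under 0.05 in RYGB against BWm and 0 in the others. Cyp7a1, the rate-limiting enzyme of bile acid synthesis, differed by 0.08 ± 0.31 in RYGB against Sham AL and by 0.11 ± 0.33 against BWm. Cyp8b1, which sets the share of cholic acid, differed by -0.30 ± 0.35 and -0.75 ± 0.38 (limma, adjusted p = 0.79 and 0.31), and the repressor Nr0b2 by 0.06 and -0.07. With standard errors of 0.31 to 0.38 for both enzymes, differences of that size and larger ones could go uncalled, as the Cyp8b1 estimate of -0.75 did.

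Of 5 genes reported to respond to FGF21 in liver, limma called 1 higher in RYGB against Sham AL, as for 0.938% of all genes. It called 2 lower in RYGB against BWm and 3 higher in BWm against Sham AL, beside 2.34% and 1.53% of all genes. The called genes were Igfbp1, Socs2 and Ppargc1a, the last 2 only in comparisons with BWm. Whether these genes follow Fgf21 was not tested. Of the other genes, which were not called, Egr1 averaged 6.91 ± 0.59 in RYGB, 6.31 ± 0.88 in Sham AL and 6.76 ± 0.92 in BWm. All 5 genes had estimates above 0 in RYGB against Sham AL (median 0.60). In RYGB against BWm 2 of the 5 did (median -0.65), and in BWm against Sham AL 4 did (median 1.01). Igfbp1, a carrier that limits IGF action, ran from 8.55 to 9.53 in RYGB, from 6.67 to 8.47 in Sham AL and from 8.99 to 10.3 in BWm, so that RYGB and Sham AL were separate while RYGB and BWm overlapped. Igfbp1 rose by 1.59 ± 0.27 in RYGB (limma, adjusted p = 0.00425) and by 2.24 ± 0.30 in BWm (adjusted p = 0.000907) against Sham AL. Its RYGB estimate against BWm was -0.65, without a call. Socs2, an inhibitor of growth hormone signalling, rose by 2.05 ± 0.32 in BWm against Sham AL and fell in RYGB against BWm by 1.19 ± 0.31 (adjusted p = 0.0023 and 0.0275). Ppargc1a, a coactivator of fasting metabolism, rose by 1.01 ± 0.21 in BWm and fell by 0.75 ± 0.20 in RYGB against BWm (adjusted p = 0.013 and 0.0319). Both falls in RYGB against BWm were lost without any 1 of 5 arrays, and the rise of Ppargc1a without BWm replicate 2 (adjusted p = 0.0628).

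Regulators of Fgf21 transcription numbered 23, of which 1 was called higher against Sham AL, and 5 higher and 5 lower against BWm. With 1 array left out, the 1 ran from 1 to 3 (3 without RYGB replicate 1 or BWm replicate 4, and 2 without RYGB replicate 5 or BWm replicate 2 or 3). The 5 lower ran from 1 to 6 (1 without BWm replicate 3, 2 when RYGB replicate 5 was dropped, and 3 when any of RYGB replicates 2, 4 and 6 or BWm replicates 1 and 2 was). Ddit3 (CHOP), a factor of the stress response that ATF4 induces, rose by 1.40 ± 0.27 against Sham AL and 1.78 ± 0.29 against BWm (limma, adjusted p = 0.0127 and 0.000837). Eif2ak3 (PERK), the kinase that senses endoplasmic reticulum stress, rose by 0.73 ± 0.13 against BWm (adjusted p = 0.0022), and its estimate of 0.51 against Sham AL had an adjusted p of 0.0506. Xbp1, another stress factor, and Nr1d1, a clock repressor, were higher in RYGB than in BWm by 0.62 and 0.82 (adjusted p = 0.0028 and 0.0074). Nr1d1 averaged 8.78 in RYGB, 8.82 in Sham AL and 7.96 in BWm. In BWm against Sham AL, 2 regulators, Ppargc1a and Sirt1, were called higher and 1, Nr1d1, lower. The Nr1d1 estimate there was -0.87 ± 0.18 (adjusted p = 0.0139, and 0.0541 without BWm replicate 2). Atf4 itself rose against BWm by 0.42 ± 0.12 (adjusted p = 0.0398), a call that ended without any 1 of 9 arrays with adjusted p up to 0.148, and it differed from Sham AL by 0.33 ± 0.11 (adjusted p = 0.19). Ppara, the fasting regulator, ran from 8.28 to 8.95 in RYGB and from 9.00 to 9.15 in BWm without overlap. Ppara fell by 0.57 ± 0.12 against BWm (adjusted p = 0.0083), and differed from Sham AL by -0.33 ± 0.12 (adjusted p = 0.205). Mlxipl (ChREBP) was not called, at -0.22 ± 0.18 and -0.62 ± 0.19 (adjusted p = 0.66 and 0.064), and the second passed without Sham AL replicate 4 (adjusted p = 0.0393) or BWm replicate 1 (0.0392).

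**Figure D4:**
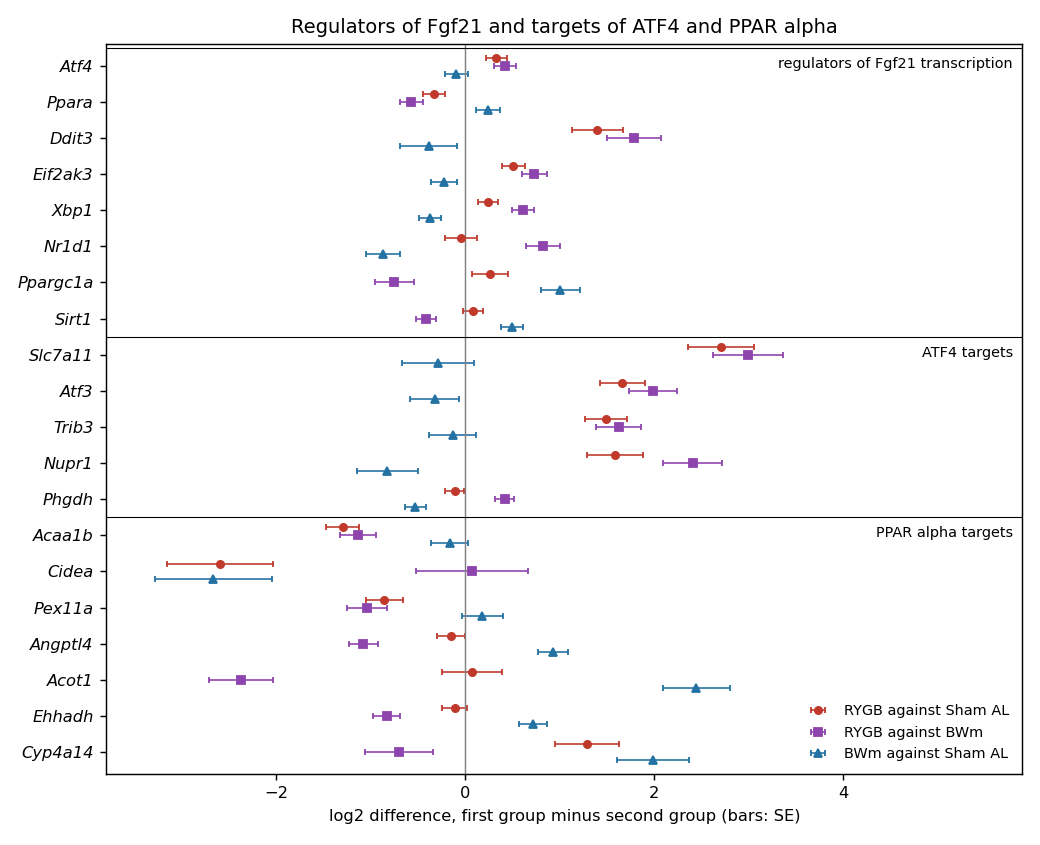
Log2 differences with standard errors in the 3 comparisons for named regulators of Fgf21 and for named ATF4 and PPAR alpha targets. Slc7a11, Atf3, Trib3 and Nupr1 lie to the right of 0 in both RYGB comparisons, and Acaa1b, Pex11a, Angptl4, Acot1 and Ehhadh lie to the left in RYGB against BWm.

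The lists of target genes differed. They were chosen with earlier results of these arrays known, so their counts are a description. Of 23 measured ATF4 targets, 9 rose and 0 fell in RYGB against Sham AL with a median of 0.63, and 13 rose and 0 fell against BWm with a median of 0.68. The 9 became 5 without Sham AL replicate 2. In BWm against Sham AL 0 rose and 1, Phgdh, fell, with a median of -0.12, and this call ended without BWm replicate 3 (adjusted p = 0.0617). Slc7a11, the cystine transporter, rose by 2.71 ± 0.35 and 2.99 ± 0.37 against Sham AL and BWm (limma, adjusted p = 0.000548 and 0.00012). Atf3, Trib3 and Nupr1, which are stress-induced regulators, rose by 1.66, 1.49 and 1.58 against Sham AL and by 1.99, 1.62 and 2.41 against BWm. Asns, which makes asparagine, rose by 1.27 and 1.33, the first of these lost without any 1 of 7 arrays. Chac1 and Vldlr, the targets with a matching motif that were not called, differed from Sham AL by -0.02 and -0.45; they are named for the motif. The mean over the list was 0.09 to 0.64 above the mean of all arrays in RYGB, -0.39 to 0.08 in Sham AL and -0.54 to -0.10 in BWm. The highest Sham AL value belonged to replicate 4, and the others were at -0.27 or lower.

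**Figure D5:**
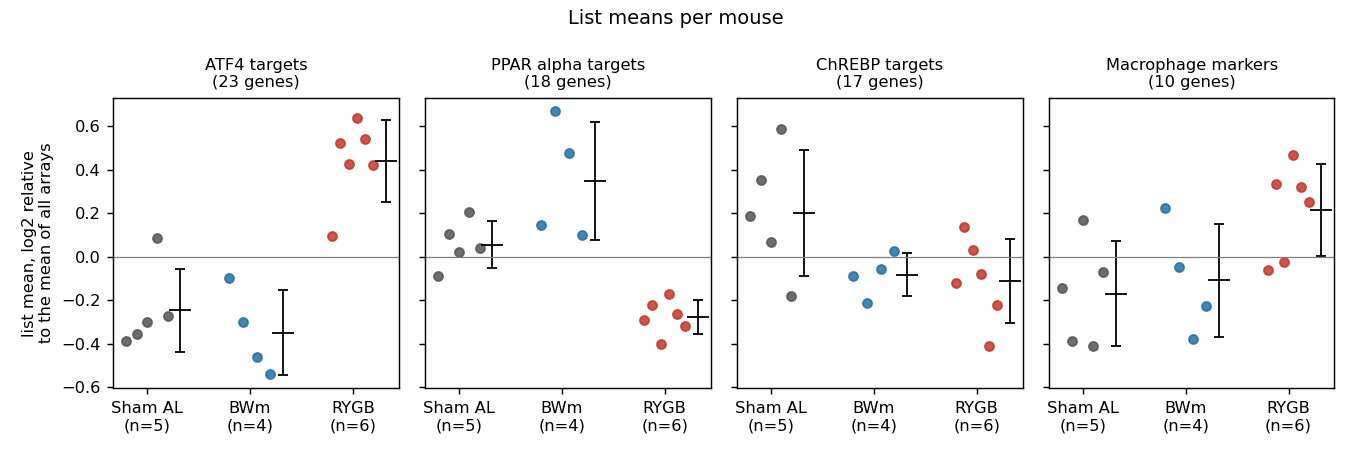
Mean log2 signal of the measured ATF4 targets, PPAR alpha targets, ChREBP targets and macrophage markers on each array, relative to the mean of all arrays, by group (1 point per mouse, bars are the mean and SD). For ATF4 targets RYGB spans 0.09 to 0.64 and BWm -0.54 to -0.10; for PPAR alpha targets RYGB spans -0.40 to -0.17 and BWm 0.10 to 0.67.

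No PPAR alpha target was called higher by limma in RYGB. Of 18 measured, 0 rose and 3 fell in RYGB against Sham AL (median -0.16; 6 estimates above 0 and 7 genes at an unadjusted p under 0.05), 0 rose and 6 fell against BWm (median -0.38), and 4 rose and 1 fell in BWm against Sham AL (median 0.15), where 1.3% of all genes were called lower. The count of 3 dropped to 1 when Sham AL replicate 2, or any of RYGB replicates 2, 3, 4 and 6, was left out. Cyp4a14, a fatty acid hydroxylase, had the highest estimate against Sham AL, 1.29 ± 0.34 (adjusted p = 0.0756), and rose by 1.99 ± 0.38 in BWm against Sham AL (adjusted p = 0.0076). Without RYGB replicate 2 or without Sham AL replicate 3, 1 target was called higher in RYGB against Sham AL. Acot1, an acyl-CoA thioesterase, fell by 2.37 ± 0.34 in RYGB against BWm and rose by 2.44 ± 0.35 in BWm against Sham AL (limma, adjusted p = 0.000342 and 0.00157). Angptl4, an inhibitor of lipoprotein lipase, and Ehhadh, a peroxisomal oxidation enzyme, moved likewise, by -1.08 and -0.83 and by 0.93 and 0.72, the last of these lost without BWm replicate 3 (adjusted p = 0.0513). Acaa1b, a peroxisomal thiolase, fell by 1.30 against Sham AL and by 1.13 against BWm. Cidea, also a fat cell marker, fell in RYGB against Sham AL by 2.60 (adjusted p = 0.0239) and by 1.85 (adjusted p = 0.0032) without Sham AL replicate 4, where it read 9.61. Leaving out Sham AL replicate 2, or any of RYGB replicates 2, 3, 4 and 6, ended this call (adjusted p up to 0.0816). Pdk4, the fasting-induced brake on pyruvate oxidation, differed from BWm by -2.09 ± 0.61 (adjusted p = 0.0501, and 0.00172 without Sham AL replicate 4), and in BWm against Sham AL by 1.42 (adjusted p = 0.29), or 2.14 (adjusted p = 0.0085) without that array. Cpt1a, the gate of mitochondrial fat oxidation, differed by 0.18 and -0.14. Among 17 ChREBP targets, 1 rose and 1 fell against Sham AL, 1 rose and 2 fell against BWm, and 1 rose and 5 fell in BWm against Sham AL. The 5 became 1 without Sham AL replicate 2 or BWm replicate 1 or 2, and 3 without Sham AL replicate 1, 3 or 4 or BWm replicate 3. The target that rose against Sham AL, Tm6sf2, was lost without any 1 of 11 arrays, and the one that fell, Thrsp, without any 1 of 7. Tkfc, which rose against BWm, was lost without any 1 of 8 arrays. Without Sham AL replicate 4, the number that rose was 0 against Sham AL and 2 against BWm.

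The genes whose signal was most like that of Fgf21 over the 15 arrays, of 13425 candidates at or above the lowest array median, were Iars (Pearson r = 0.955), Supt5 (0.942), Exosc1 (0.917), Ets2 (0.909) and Slc7a11 (0.899). With group means removed r was 0.805, 0.762, 0.683, 0.623 and 0.565. Iars, the isoleucine tRNA synthetase, rose by 0.54 against Sham AL and 0.49 against BWm (limma, adjusted p = 0.0123 and 0.0109). The genes most like Klb were Dusp16 (0.911), Slc17a1 (0.910), Asgr1 (0.908), Fam169b (0.900) and Cyp2c68 (0.897), and with group means removed r was 0.830, 0.769, 0.897, 0.816 and 0.723. Asgr1 is a hepatocyte surface receptor, and its signal differed by 0.27 in BWm against Sham AL without a call (adjusted p = 0.22). Correlations chosen as the highest among so many are large by selection and are given as a description only. The same holds for the differences and p-values of Iars and Asgr1, since the choice used the same arrays with group differences included.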

How the data were processed

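Liver RNA of 15 mice was measured on Mouse Gene 2.0 ST arrays. The deposited values are log2 signals that the authors made with Expression Console 1.4.1.46 by robust multi-array averaging, per the labels and the series text; that step scales arrays to a common distribution, so a shift of all genes would not show. Of 41345 clusters, 23521 had 1 symbol, 1814 several and 16010 none; for each of 22180 genes the cluster with the highest mean was kept. Group means were compared with limma 3.58.1 (R 4.3.3; lmFit and eBayes, 12 residual degrees of freedom, no covariate, all 15 arrays in 1 fit), two-sided, with Benjamini-Hochberg adjustment over all genes and a threshold of 0.05. The fit was tested on simulated data. Correlations among the 6 genes used 100000 permutations within groups (SciPy 1.17.1). Replicates are titled as biological, 1 mouse each. The members and gene lists were chosen with earlier results of these data known; named genes are the 6 genes, a fixed set of pathway genes, and at most the 4 called genes with the smallest p per list and comparison. Of 275 listed genes 253 were measured; Frs2 and Gdf15 are not analysed here. Alternatives were other normalizations, cluster choices, variance settings, blocks, the methods' ANOVA with a 1.5-fold limit, and each array left out.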

Additional observations from a re-analysis of the deposited data

Results flagged for a closer look

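In 13 of 207 group-by-gene sets, for 69 named genes, 1 array lay farther from its group than Dixon's 95% critical value allows; chance alone marks about 1 in 20 such sets. Among the 6 genes it was Fgfr3 on BWm replicate 3, at 5.15 with the nearest at 5.58. The others were Fgf15 on RYGB replicate 6 (4.74) and Sham AL replicate 3 (3.93), Cyp8b1 on BWm replicate 2 (8.85), Ppara on BWm replicate 1 (9.00), Atf4 on RYGB replicate 1 (7.45) and Sham AL replicate 3 (7.02), and Slc7a11 on RYGB replicate 1 (4.29). Nupr1 on BWm replicate 1 (6.14), Sdc4 on RYGB replicate 3 (9.66), Angptl4 on RYGB replicate 3 (8.23), Phgdh on BWm replicate 3 (4.08) and Dusp16 on BWm replicate 3 (7.60) complete the set. RYGB replicate 1 also had the lowest Fgf21 of its group.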

How the results depend on the processing

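Of 468 alternatives to the 18 member tests, 436 kept direction and side of the threshold; both Fgf21 calls for RYGB held in all 26 each. Klb in BWm against Sham AL held in 19 of 26, being lost with all clusters tested (0.73) and under the replicate block (0.70). Signs of small, uncalled estimates turned for RYGB against Sham AL in Fgfr1 (quantile normalization -0.027, array weights -0.00058, replicate block -0.025) and Fgfr3 (array medians subtracted 0.0071, replicate block 0.0080). With 1 array left out, the ranges were -0.075 to 0.13 for Fgfr1, -0.11 to 0.030 for Fgfr3 and 0.46 to 0.70 for Klb in RYGB against Sham AL, -0.13 to 0.024 for Fgfr4 in RYGB against BWm, and -0.027 to 0.31 for Fgf21, -0.050 to 0.15 for Fgfr3 and 0.62 to 0.85 for Klb in BWm against Sham AL.

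Counts of calls moved more. RYGB against Sham AL gave 306 genes (208 higher, 98 lower; 19 of the pathway), 169 (110, 59; 9) with all clusters and 29 of the pathway with the methods' ANOVA; with 1 array left out 144 to 398 (102 to 280, 42 to 118; 8 to 21), lowest without Sham AL replicate 2 and 176 and 200 without RYGB replicates 4 and 6. RYGB against BWm gave 1411 (892, 519), 856 (535, 321) with the ANOVA and 930 to 1544 with 1 array left out (lower 295 to 576), lowest without BWm replicate 3. BWm against Sham AL gave 629 (340, 289; 19) and 284 to 646 with 1 array left out (160 to 390, 120 to 288; 11 to 20), lowest without BWm replicate 2 or 3, and 382 without Sham AL replicate 2. The cause of these changes was not tested.

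Over 13 same-numbered pairs of mice the correlations of deviations ran from -0.17 to 0.19, with 4 above 0.1. Pairs with different numbers were not compared, so whether the replicate numbers pair the mice was not tested. With the replicate block, calls numbered 174 (118, 56; 12 of the pathway), 903 (291 lower) and 325 (191, 134; 10). Of 59 calls of named genes beside the 6, the block ended 19, among them Ppara (adjusted p = 0.0541), Nras, Gab1 and Sulf2 in RYGB against BWm, the ANOVA's fold limit 12, and leaving out 1 array 26. Each of the 6 genes has 1 cluster, so a second-highest cluster could not be run for them. With 4 to 6 arrays a group, real differences can go uncalled. The printed intervals are not adjusted for the number of genes, and that of Fgfr2 in RYGB against BWm excludes 0 without a call.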
